A study of Homo sapiens with 22 samples.

Results

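The MYC locus was examined here as a window of 2.5 Mb on human chromosome 8 (GRCh38 chr8:127500000-130000000) that holds MYC, the long noncoding RNA gene PVT1 beyond it and the noncoding gene CCDC26 towards its far end. All regions of the deposited count tables that overlapped this window were taken, without regard to their counts. They numbered 640 of 409446 regions in the series, with 186 H3K27ac, 231 Jun, 60 CTCF and 163 Rad21 regions. A filter on low counts left 186, 222, 48 and 123 of them for testing, in the same order.

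MYC encodes a transcription factor that drives growth and proliferation genes and is switched down when many blood cell lines differentiate. Its coding gene is small and is flanked by long stretches of noncoding DNA, in which enhancers reach the MYC promoter by looping. In K562 cells, screens that silenced chromatin element by element placed MYC enhancers inside PVT1 and near CCDC26, and the PVT1 promoter is known to compete with MYC for enhancers in some cells. H3K27ac is a histone acetylation found at active promoters and enhancers, Jun is a subunit of AP-1, the transcription factor activated by phorbol esters, CTCF is an insulator protein that anchors loops, and Rad21 is a subunit of cohesin, the ring that extrudes them.

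The cells were K562, an established human leukemia line with erythroid features, without a genetic change according to the labels (WT). They received 25 nM PMA, a phorbol ester that pushes the line towards a megakaryocyte-like state, for 0, 6 or 72 h. Rad21 libraries exist for 0 and 72 h and those of the other antibodies for every time, giving 22 libraries in 11 groups of 2. The titles name the assay CNR, here read as CUT&RUN: an antibody directs a nuclease to cut out the DNA it marks. The whole experiment rests on this single line, and the labels do not say whether the 2 libraries of a group came from separate cultures, so p-values measure the spread between these libraries, which may be technical. The 6 and 72 h comparisons share their 0 h libraries. In a population of cells, fewer cells with a mark and less of the mark per cell cannot be told apart.

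Counts in regions ranged from 12634261 to 27266241 per H3K27ac library, from 4766421 to 18883962 for Jun, from 2553677 to 6068421 for CTCF and from 4398797 to 7285286 for Rad21. As a check of the label, the erythroid marker genes HBG1, GATA1, KLF1 and TAL1 had an H3K27ac region at their start or, for HBG1 and TAL1, whose strand is not given, within their span (between 24.9 and 165 CPM at 0 h) and HBE1 had none. Of the markers of T cells, hepatocytes and keratinocytes, CD3E and CD3D had regions of 5.03 and 14.7 CPM, and ALB, APOA1, KRT5 and KRT14 had none. CPM here is the count of a region scaled to the library's total after TMM normalization. The scaling carries weight in these data. With total-count scaling the median log2 change of all H3K27ac regions at 72 h moved from 0.18 to 0.42, and with stable-peak scaling, whose factors come only from the regions where all libraries of the antibody had a peak, it moved to 0.79. For Jun the median moved from 0.17 to 0.73 and 0.96. Turns of direction with the scaling are named for counts of calls and for called regions named by rule. For regions chosen after their values were seen and for most genes of the lists, directions are those of the main scaling only. Falls in H3K27ac at 72 h as large as -0.52 turned in sign with stable-peak scaling. Shares of the window's own counts, which no scaling touches, are given beside the main results.

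H3K27ac over the window fell with time. Its summed level was 3238.68 ± 95.7 CPM at 0 h, 2337.65 ± 183 at 6 h and 1631.61 ± 28.0 at 72 h (mean ± SD, n = 2), a 1.98-fold difference between 0 and 72 h. With total-count scaling, a setting added after the data were seen, this difference was 1.69-fold. It was not computed with stable-peak scaling, under which changes at 72 h were shifted upwards. Of the 186 regions, 58 rose and 60 fell at 6 h, where 58.6% of all tested H3K27ac regions were called (32.3% higher and 26.3% lower). At 72 h 53 rose and 100 fell, against 81.5% of all regions called (43.4% higher and 38.1% lower). A region was called at a Benjamini-Hochberg adjusted p below 0.05 in edgeR's quasi-likelihood test over all regions of the antibody. The share called in the window, 63.4% and 82.3%, was thus near the share of all regions. The median log2 change of the window's regions was -0.55 at 72 h, against 0.18 over all regions; it was -0.32 with total-count scaling and turned to 0.06 with stable-peak scaling. Directly between 6 and 72 h, 30 regions rose and 99 fell, where 63.8% of all regions were called (33.1% higher and 30.8% lower). Of the window's calls 49.2% were higher at 6 h and 34.6% at 72 h; with total-count scaling these shares were 68.1% and 41.5%, and with stable-peak scaling 69.0% and 49.0%. In the series as a whole, among regions of at least 10 CPM, 27.8% were higher and 61.1% lower at 72 h. On chromosome 8 outside the window, 48.4% were higher and 35.4% lower.

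**Figure D1:**
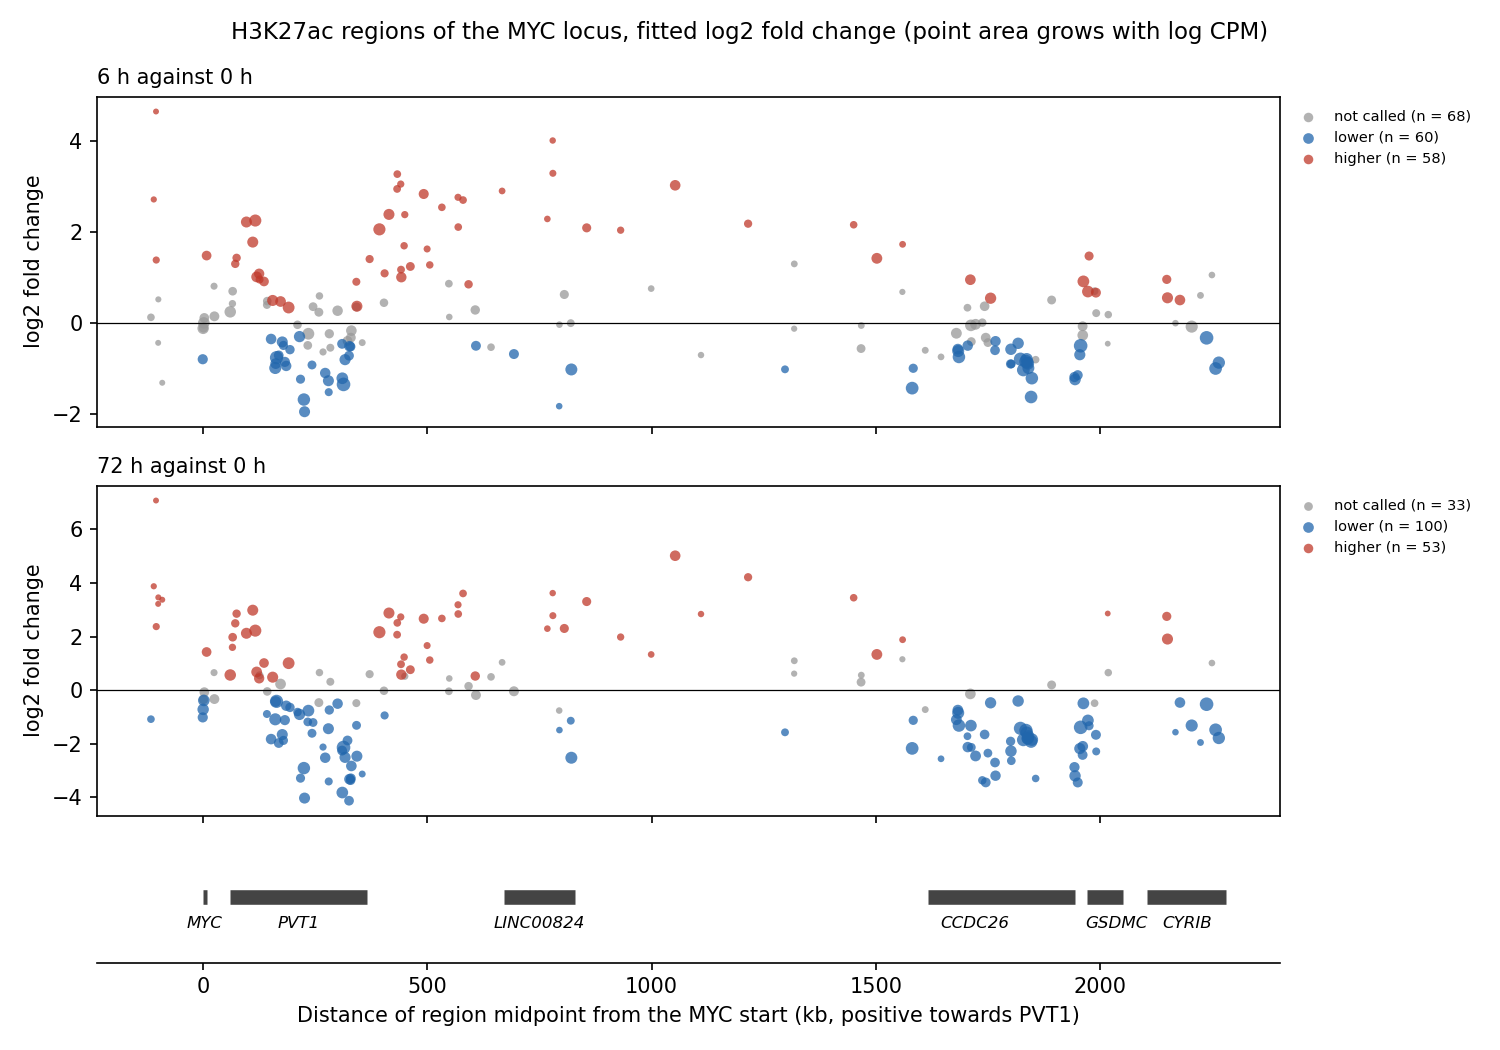
H3K27ac change of each region in the window (log2 fold change, vertical axis) against its distance from the MYC start in kb (horizontal axis), at 6 h and at 72 h against 0 h; points are regions, with an area that grows with log CPM and a colour for called higher, called lower or not called, and gene spans are drawn below. Falls fill the far part of PVT1 and the CCDC26 span, and rises fill the near part of PVT1 and the stretch beyond its end.

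The losses and gains were arranged in blocks along the chromosome. Distances are given from the start of MYC, positive towards PVT1, which spans 59.1 to 365.8 kb, and CCDC26, which spans 1616.3 to 1944.8 kb. Within the PVT1 span 13 of 59 H3K27ac regions rose and 39 fell at 72 h, with a median log2 change of -0.90. In the CCDC26 span none of 35 rose and 33 fell, with a median of -1.84. Up to 0.5 Mb but outside PVT1, mostly past its far end, the direction was the opposite: 11 of 17 regions rose and 1 fell, with a median of 0.97. From 0.5 to 1 Mb 13 of 24 rose and 3 fell, from 1 to 1.5 Mb 4 of 9 rose and 1 fell, and beyond 1.5 Mb 5 of 64 rose and 52 fell. Over all H3K27ac regions 43.4% were higher and 38.1% lower, so the 44.4% higher from 1 to 1.5 Mb was near the share of all regions. Before MYC, where every region was dim, 6 of 7 rose and 1 fell. The parts also differed in brightness. The median of the regions' mean CPM was 13.6 in the CCDC26 span, 12.2 beyond 1.5 Mb and 7.09 in the PVT1 span. It was 2.33 outside PVT1 up to 0.5 Mb, 1.58 from 0.5 to 1 Mb and 1.52 from 1 to 1.5 Mb. Among all regions of at least 10 CPM 61.1% were lower, near the 66.1% of the PVT1 span and under the 94.3% of the CCDC26 span. The part of brightness in these blocks was not tested.

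These directions at 72 h held under each scaling tried. The PVT1 span had 16 higher and 33 lower with total-count scaling and 17 and 29 with stable-peak scaling. The CCDC26 span had 0 and 31, and 2 and 30, under the same settings. At 6 h the direction inside PVT1 depended on the scaling: 14 rose and 25 fell in the main analysis, but 20 were higher and 14 lower with total counts, and 21 and 14 with stable-peak scaling. In the CCDC26 span at 6 h, 2 rose and 21 fell, and more fell than rose under each of those scalings.

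Summed levels, computed for these parts with the main scaling only, showed the same blocks. The CCDC26 span carried 1194.06 ± 25.3 CPM of H3K27ac at 0 h, 707 ± 74.5 at 6 h and 397 ± 16.1 at 72 h, a 3.00-fold difference between 0 and 72 h. The PVT1 span carried 1061.47 ± 36.5, 742 ± 46.4 and 561 ± 4.01 CPM, a 1.89-fold difference. The regions outside PVT1 up to 0.5 Mb, by contrast, carried 42.9 ± 1.13, 132 ± 1.85 and 124 ± 1.23 CPM, 2.89-fold more at 72 than at 0 h. Regions from 1 to 1.5 Mb, a gene-poor stretch, carried 10.1 ± 0.186, 15.9 ± 1.11 and 46.3 ± 2.54 CPM, 4.59-fold more at 72 h. Without the region at 1052.4 kb, a setting added after the data were seen, the other 8 summed to 9.24 ± 0.179, 8.93 ± 0.254 and 18.6 ± 0.671 CPM, 2.01-fold more at 72 h. As a share of all H3K27ac counts in the window, the CCDC26 span went from 36.9% ± 0.309 at 0 h to 30.2% ± 0.819 at 6 h and 24.4% ± 0.570 at 72 h (SD, n = 2), while the PVT1 span stayed between 31.8% and 34.4%. With 2 libraries against 2, an exact permutation test on a single sum cannot reach 0.05, so the sums are given without one.

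**Figure D2:**
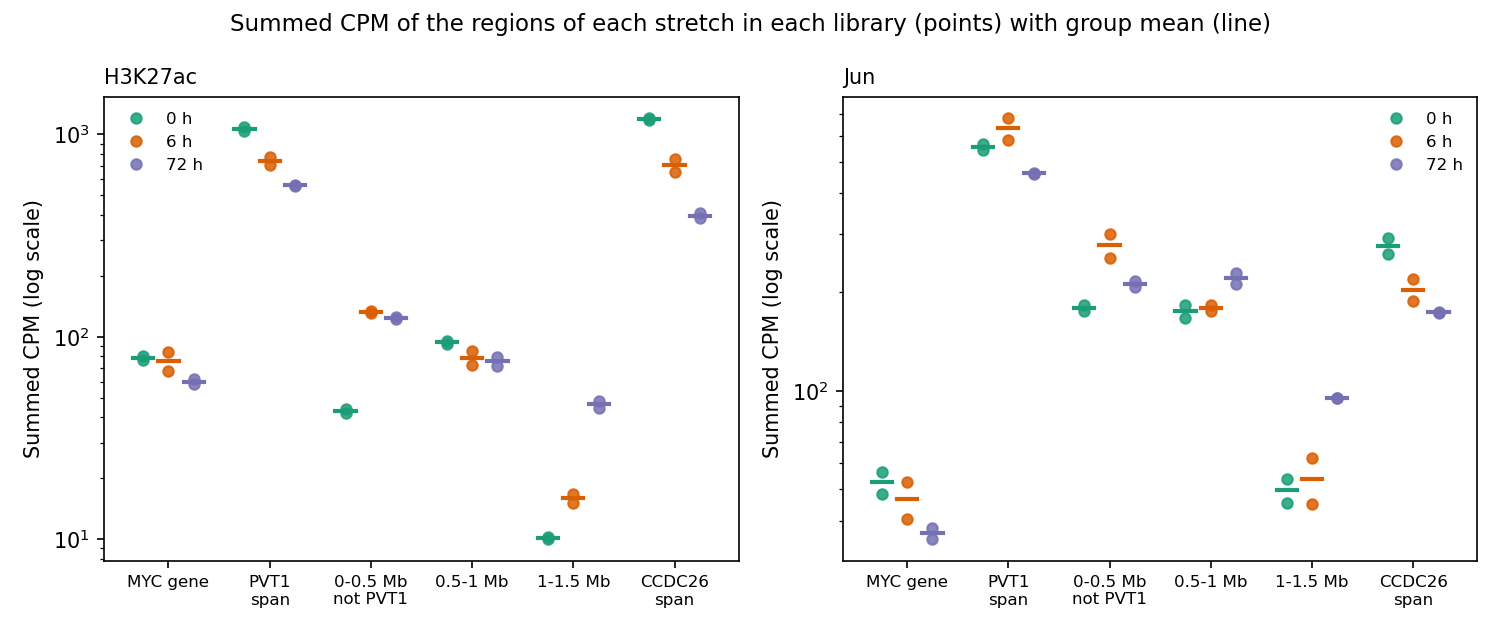
Summed level of the H3K27ac and Jun regions in each part of the window (CPM, log axis) at 0, 6 and 72 h of PMA; points are the single libraries and lines the means of 2. H3K27ac in the CCDC26 and PVT1 spans falls from 1194.06 and 1061.47 CPM to 397 and 561 CPM, while outside PVT1 up to 0.5 Mb it rises from 42.9 to 124 CPM.

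Inside PVT1 the near part and the far part went opposite ways. Both were delimited after the values had been seen, so their counts describe the pattern and test nothing. The near part runs from 60.3 to 135.6 kb and holds the start of PVT1: of its 12 H3K27ac regions 9 rose at 6 h and 11 at 72 h, and none fell. The far part runs from 142.1 to 354.6 kb: of its 47 regions 5 rose and 25 fell at 6 h, and 2 rose and 39 fell at 72 h. The near part held 61.4 and 59.5 CPM in the 0 h libraries, 147 and 154 at 6 h, then 172 and 176 at 72 h, and its share of the window's counts went from 1.94% and 1.80% to 10.7% in both 72 h libraries. The far part held 974 and 1028 CPM at 0 h, 561.9 and 621.3 at 6 h, then 386 and 387 at 72 h, and its share went from 30.7% and 31.1% to 24.0% and 23.4%. The gain carried on past the end of PVT1: from 371.1 to 591.7 kb 20 of 23 regions rose at 6 h, and 16 rose and 1 fell at 72 h.

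Of the 6 H3K27ac regions at MYC, from 5 kb before its start to 5 kb past its end, 1 rose and 3 fell at 72 h, but 2 were higher and 1 lower with stable-peak scaling. The region that covers the annotated start (chr8:127734855-127735865) had 26.4 and 23.6 CPM at 0 h, 20.2 and 25.2 at 6 h, then 15.2 in both libraries at 72 h. Both 72 h libraries lay below all others, while the 6 h libraries straddled the lower 0 h one. The log2 change was -0.13 ± 0.13 (SE; adjusted p = 0.396) at 6 h and -0.71 ± 0.13 (adjusted p = 1.24e-05) at 72 h. That call was lost with stable-peak scaling, where the change was -0.11 (adjusted p = 0.389). At 6 h, where the region was not called, its change ran from -0.33 to 0.22 over the alternative settings.

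The brightest region of the gene lay within its body at 1.4 kb (chr8:127736270-127737456), with 27.1 and 24.0 CPM at 0 h, 21.4 and 29.0 at 6 h, then 18.5 and 20.8 at 72 h. The 72 h libraries lay below all 4 others, and the 6 h libraries lay on both sides of the 0 h ones. Its log2 change at 72 h was -0.38 ± 0.13 (adjusted p = 0.0104), and its sign turned to 0.22 with stable-peak scaling. The call was also lost with total-count scaling (adjusted p = 0.257), with DESeq2 (adjusted p = 0.0784), without replicate 1 of 0 h (adjusted p = 0.116) and without replicate 1 of 72 h (adjusted p = 0.110). The smaller region at 0.6 kb was not called at either time (log2 change at 72 h -0.34 ± 0.19, adjusted p = 0.101). Its change at 72 h ran from -0.42 to 0.26 over the alternative settings. Just before the start, at -1.0 kb (chr8:127734239-127734703), the level was 12.3 and 13.3 CPM at 0 h, 7 and 7.63 at 6 h, then 6.04 and 6.66 at 72 h, without overlap between 0 h and either later time. That region fell by 0.81 at 6 h (SE 0.16, adjusted p = 0.000153) and by 1.01 at 72 h (SE 0.16, adjusted p = 2.22e-06) on the log2 scale.

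The 3′ end of MYC went the other way. There, at 7.6 kb (chr8:127742539-127743458), H3K27ac had 2.90 and 3.16 CPM at 0 h, 7.28 and 9.45 at 6 h, then 7.78 and 8.56 at 72 h, with all later libraries above both 0 h ones. The log2 change was 1.48 ± 0.21 at 6 h (adjusted p = 1.13e-06) and 1.43 ± 0.20 at 72 h (adjusted p = 4.74e-07). This region was chosen after its values were seen.

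PVT1 is transcribed from a promoter of its own, which in K562 cells carries H3K27ac. The region at the PVT1 start (chr8:127794674-127796709, which also covers MIR1204) had 19.0 and 17.2 CPM at 0 h, 18.9 and 23.5 at 6 h, then 23.6 and 30.1 at 72 h. Libraries of 0 and 6 h overlapped, and both 72 h libraries lay above them. The log2 change was 0.24 ± 0.14 at 6 h (adjusted p = 0.145) and 0.57 ± 0.13 at 72 h (adjusted p = 0.000384). At 6 h it passed the test with total-count scaling (0.57, adjusted p = 0.000535).

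Further into the near part of PVT1, at 116.2 kb (chr8:127850769-127852575), H3K27ac had 10.2 and 9.27 CPM at 0 h, 43.8 and 48.5 at 6 h, then 45.4 and 45.8 at 72 h. Libraries of 6 and 72 h overlapped, and all lay above those of 0 h. The log2 change was 2.25 ± 0.12 at 6 h (adjusted p = 4.48e-14), 2.23 ± 0.12 at 72 h (adjusted p = 6.1e-15) and -0.02 ± 0.10 between 6 and 72 h (adjusted p = 0.872). Its neighbour at 96.4 kb had 4.54 and 4.80, 23.0 and 20.6, and 21.2 and 19.7 CPM at 0, 6 and 72 h. Both were chosen after their values were seen, although the first holds the Jun region with the highest mean CPM up to 0.5 Mb.

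The far part of PVT1 held the H3K27ac region with the highest mean CPM up to 0.5 Mb. It lies at 312.9 kb (chr8:128047026-128049628), beside the microRNA gene MIR1207, and had 201 and 205 CPM at 0 h, 69.6 and 88.2 at 6 h, then 45.8 and 46.5 at 72 h. The 3 time points did not overlap and each was below the one before. It fell by 1.36 at 6 h (SE 0.11, adjusted p = 1.68e-10) and by 2.14 at 72 h (SE 0.12, adjusted p = 8.16e-15) on the log2 scale.

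A pair of neighbouring regions at MIR1205 fell further. At 224.5 kb (chr8:127958975-127960898) the libraries had 89.4 and 94.3 CPM at 0 h, 28.8 and 28.1 at 6 h, then 12.4 and 12.1 at 72 h, and the log2 change at 72 h was -2.91 ± 0.11 (adjusted p = 6.17e-18). At 226.0 kb (chr8:127961056-127961892) they had 36.6 and 35.7, 8.19 and 10.2, and 2.71 and 1.71 CPM, and the log2 change at 72 h was -4.02 ± 0.17 (adjusted p = 5.05e-17). In the authors' deposited table the log2 fold change at 72 h was -2.85 at 224.5 kb and -2.08 at 312.9 kb, and -0.33 at 1.4 kb in MYC. The authors label the regions at 224.5 and 312.9 kb upLate, against the sign of these values. Their adjusted p-values at these regions are identical for both later times. No call here rests on those labels or p-values.

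Regions inside PVT1 also fell between 6 and 72 h. The region at 325.2 kb (chr8:128060506-128060823) had 11.5 and 12.1 CPM at 0 h, 6.65 and 7.53 at 6 h, then 0.579 and 0.765 at 72 h, with a log2 change of -0.73 ± 0.18 at 6 h (adjusted p = 0.00109) and -4.12 ± 0.23 at 72 h (adjusted p = 1.75e-14). The 6 h call was lost with total-count scaling (-0.40, adjusted p = 0.0674). At 342.7 kb, a region chosen after its values were seen, the level was 19.9 and 19.3 CPM at 0 h, 22.5 and 27.6 at 6 h, then 4.38 and 2.73 at 72 h. It thus rose by 6 h (log2 change 0.36 ± 0.15, adjusted p = 0.0365) and was the lowest at 72 h (-2.46 ± 0.17, adjusted p = 1.15e-12).

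**Figure D3:**
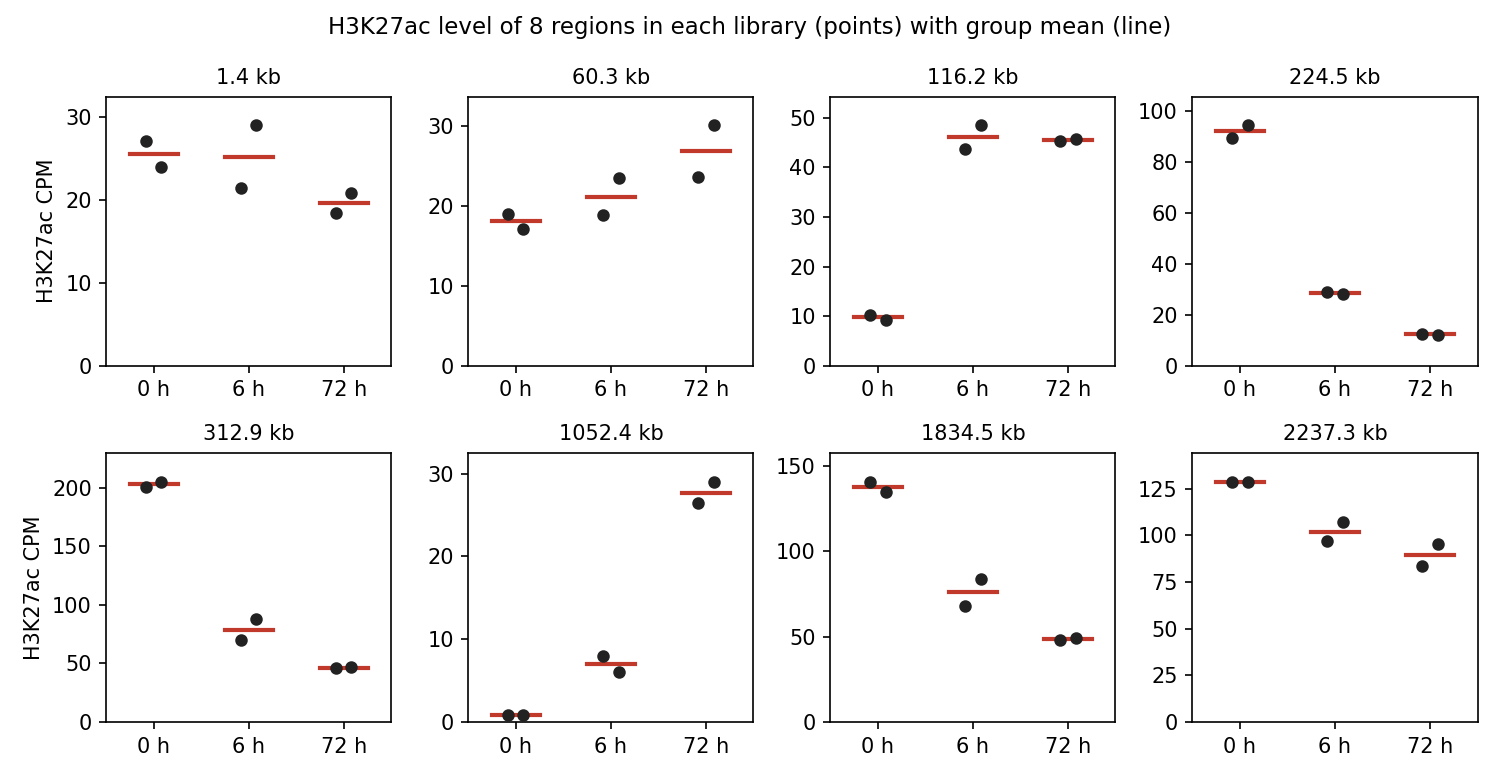
H3K27ac level (CPM, axis from 0) in each library at 0, 6 and 72 h of PMA for 8 regions, named by their distance from the MYC start; points are single libraries and lines the means of 2. The regions at 224.5 and 312.9 kb fall at every step, that at 1052.4 kb rises at every step, and that at 116.2 kb rises by 6 h; at 1.4 kb, within MYC, the 0 and 6 h libraries overlap.

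Beyond PVT1 the H3K27ac regions named for their rises lay in DNA outside the annotated gene spans. At 491.7 kb (chr8:128226203-128228064) H3K27ac had 2.04 and 1.37 CPM at 0 h, 13.2 and 11.1 at 6 h, then 10.9 and 10.7 at 72 h, with a log2 change of 2.83 ± 0.22 at 6 h (adjusted p = 2.77e-11) and 2.67 ± 0.21 at 72 h (adjusted p = 1.56e-11). At 1052.4 kb (chr8:128786878-128788858) the level was 0.852 and 0.843 CPM at 0 h, 7.98 and 6.05 at 6 h, then 26.4 and 29.0 at 72 h. This region rose at each step, without overlap, and its log2 change was 3.02 ± 0.25 at 6 h (adjusted p = 1.23e-10) and 5.02 ± 0.21 at 72 h (adjusted p = 3.68e-17).

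The region at 855.1 kb also rose at both times, and one in LINC00824 fell. At 855.1 kb the libraries had 0.511 and 1.16 CPM at 0 h, 4.34 and 3.00 at 6 h, then 8.80 and 8.08 at 72 h (log2 change 2.09 ± 0.33 at 6 h, adjusted p = 6.45e-06, and 3.31 ± 0.29 at 72 h, adjusted p = 1.08e-10). At 820.9 kb, inside the noncoding gene LINC00824 (chr8:128555197-128557434), they had 55.3 and 57.1, 29.5 and 25.7, and 10.7 and 8.92 CPM at the 3 times. This was the region with the highest mean CPM between 0.5 and 1 Mb, and it fell by 2.52 at 72 h (SE 0.12, adjusted p = 5.94e-16) on the log2 scale, in a stretch where 13 of 24 regions rose.

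CCDC26 lies in a stretch where K562 enhancers of MYC have been mapped. Its H3K27ac region with the highest mean CPM, at 1834.5 kb (chr8:129568891-129570976), had 141 and 135 CPM at 0 h, 68.3 and 83.8 at 6 h, then 48.1 and 49.4 at 72 h. No library of one time overlapped another time's, and it fell by 0.86 at 6 h (SE 0.11, adjusted p = 2.94e-07) and by 1.50 at 72 h (SE 0.11, adjusted p = 3.97e-12). The region at 1846.0 kb had 97.8 and 93.5, 27.3 and 33.9, and 24.0 and 26.8 CPM, so most of its fall was present by 6 h. The region at 1722.2 kb had 19.0 in both libraries at 0 h, 16.4 and 20.4 at 6 h, then 3.44 and 3.50 at 72 h, so its fall was not present at 6 h (log2 change -0.04 ± 0.14, adjusted p = 0.828). These 3 were chosen after their values were seen.

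Just past CCDC26, at and before GSDMC, a gasdermin gene, several regions rose first and fell later. At 1972.7 kb, within GSDMC, the libraries had 23.2 and 26.7 CPM at 0 h, 36.5 and 43.5 at 6 h, then 10.7 and 12.1 at 72 h. The log2 change was 0.68 ± 0.12 at 6 h (adjusted p = 2.84e-05), -1.13 ± 0.13 at 72 h (adjusted p = 1.3e-08) and -1.81 ± 0.13 between 6 and 72 h (adjusted p = 4.6e-12). With the main scaling, regions at 1962.6 and 1990.6 kb had the same order, with log2 changes of 0.91 and 0.66 at 6 h and -0.49 and -1.66 at 72 h. A fall of -0.52 elsewhere in the window, at 2237.3 kb, turned to 0.08 with stable-peak scaling, and the value at 1962.6 kb under it is not given. The regions at 1972.7, 1962.6 and 1990.6 kb were also chosen after their values were seen.

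At the far edge of the window lies CYRIB, a regulator of the actin cytoskeleton. The region at 2237.3 kb in its span (chr8:129970873-129974512), the one with the highest mean CPM beyond 1.5 Mb, had 128 and 129 CPM at 0 h, 96.8 and 107 at 6 h, then 83.6 and 95.6 at 72 h. Its log2 change of -0.52 ± 0.11 at 72 h (adjusted p = 9.17e-05) turned to 0.08 with stable-peak scaling. Before MYC, the brightest region, at -116.5 kb, had 2.61 and 1.11, 3.08 and 1.08, and 0.941 and 0.801 CPM, and its call at 72 h (log2 change -1.08 ± 0.47, adjusted p = 0.0362) was lost without replicate 1 of 0 h (-0.35, adjusted p = 0.590), without either 72 h library, with DESeq2 and with both other scalings. At -105.2 kb the 0 h libraries held 0 counts, and the 72 h level was at least 9.73-fold higher, against a floor of 3 counts over the group.

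Jun occupied many of the same places. Of 222 tested Jun regions, 32 rose and 30 fell at 6 h, where 25.3% of all Jun regions were called (13.1% higher and 12.2% lower), and 51 rose and 55 fell at 72 h, where 53.7% were called (28% higher and 25.7% lower). Between 6 and 72 h 22 rose and 31 fell, against 26.2% called over all regions (12.7% higher and 13.5% lower). The count at 72 h dropped to 64 without replicate 1 of 72 h and to 66 without replicate 2. The split between higher and lower calls turned with the scaling: 48.1% of the window's calls at 72 h were higher in the main analysis, 78.0% with total counts and 84.8% with stable-peak scaling. At 6 h the shares were 51.6%, 69.0% and 65.6% in the same order, and between 6 and 72 h 41.5%, 85.7% and 95.8%. The share of Jun counts on the mitochondrial chromosome went from 25.9% ± 2.58 at 0 h to 19.7% ± 2.24 at 6 h and 8.83% ± 0.344 at 72 h (SD, n = 2), and its part in these results was not tested.

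By position, 10 of 55 Jun regions in the PVT1 span rose and 19 fell at 72 h, and this direction turned with the scaling (21 and 9 with total counts, 26 and 7 with stable-peak scaling). In the CCDC26 span 2 of 26 rose and 12 fell, and this too turned, to 8 and 7 and to 8 and 5. Outside PVT1 up to 0.5 Mb 10 of 21 rose and 3 fell, and from 1 to 1.5 Mb 6 of 20 rose and none fell, with more higher than lower under each of those scalings and with DESeq2. As a share of the window's Jun counts, the CCDC26 span went from 16.3% at 0 h to 11.6% at 6 h and 11.7% at 72 h, and the stretch from 1 to 1.5 Mb from 2.94% to 3.13% and 6.44% (means of 2 libraries).

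Of the 6 Jun regions at MYC, 2 rose and 3 fell at 72 h, and the 3 that fell lay at its start. Of these, the region at 0.7 kb (log2 change -1.15 ± 0.32, adjusted p = 0.00436) lost its call with total-count scaling (adjusted p = 0.116), with stable-peak scaling (adjusted p = 0.322) and without replicate 2 of 72 h (adjusted p = 0.0594). Over the annotated start, at 0.0 kb (chr8:127735122-127735783), the libraries had 12.7 and 15.8 CPM at 0 h, 6.58 and 9.49 at 6 h, then 4.80 and 4.88 at 72 h. The 3 times did not overlap, and the region fell by 1.55 at 72 h (SE 0.23, adjusted p = 9.54e-06) on the log2 scale. Before the start, at -0.8 kb (chr8:127734182-127735023), they had 16.6 and 20.4, 10.7 and 10.2, and 6.99 and 6.54 CPM, with a log2 change of -0.83 ± 0.23 at 6 h (adjusted p = 0.00983) and -1.45 ± 0.20 at 72 h (adjusted p = 5.22e-06). Of the 6 h calls, that over the start was lost with total counts (-0.60, adjusted p = 0.101), with stable-peak scaling (-0.64, adjusted p = 0.0653) and with DESeq2 (-0.87, adjusted p = 0.0692). It was also lost without replicate 2 of 0 h (-0.64), replicate 1 of 6 h (-0.58) or replicate 1 of 72 h (-0.81). The call at -0.8 kb was lost with total counts (-0.62, adjusted p = 0.0533) and without replicate 2 of 0 h. At the 3′ end of MYC, at 7.6 kb, Jun was not called at either time in the main analysis (11.7 and 13.9 CPM at 0 h, 14.3 and 21.3 at 6 h, 15.6 and 13.3 at 72 h). With total-count scaling it was called higher at 6 h (0.70, adjusted p = 0.0395) and 72 h (0.74, adjusted p = 0.00791). So it was with stable-peak scaling (0.66, adjusted p = 0.0326, and 0.96, adjusted p = 0.000387). At the PVT1 start Jun was not called in the main analysis (log2 change at 72 h 0.08 ± 0.47, adjusted p = 0.893).

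The Jun region with the highest mean CPM up to 0.5 Mb lay in the near part of PVT1, at 116.3 kb (chr8:127850995-127852554). It had 31.9 and 39.0 CPM at 0 h, 101 and 121 at 6 h, then 70.9 and 68.6 at 72 h, and was thus highest at 6 h with no overlap between times. Its log2 change was 1.64 ± 0.20 at 6 h (adjusted p = 4.9e-06), 0.98 ± 0.20 at 72 h (adjusted p = 0.000277) and -0.67 ± 0.19 between 6 and 72 h (adjusted p = 0.0128). In the far part, at 309.6 kb (chr8:128044728-128045343), Jun had 25.4 and 25.8 CPM at 0 h, 3.18 and 7.12 at 6 h, then 5.04 and 4.84 at 72 h, a log2 change of -2.37 ± 0.23 at 72 h (adjusted p = 6.2e-08).

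Beyond PVT1, Jun at 412.0 kb had 1.75 and 0.717 CPM at 0 h, 4.77 and 7.66 at 6 h, then 5.90 and 5.81 at 72 h (log2 change at 6 h 2.35 ± 0.44, adjusted p = 0.000410). At 1052.4 kb (chr8:128787437-128788303) it had 2.04 and 2.58, 5.45 and 6.93, and 14.7 and 13.8 CPM, with a log2 change of 2.62 ± 0.27 at 72 h (adjusted p = 1.59e-07). At 999.0 kb it was low only at 6 h: 5.25 and 5.73 CPM at 0 h, 1.36 and 0.365 at 6 h, then 4.18 and 4.29 at 72 h. That dip passed the test both against 0 h (log2 change -2.74 ± 0.50, adjusted p = 0.000377) and against 72 h (2.36 ± 0.49 from 6 to 72 h, adjusted p = 0.00129). Near CCDC26, at 1957.2 kb (chr8:129692188-129693166), Jun had 73.1 and 75.2 CPM at 0 h, 26.8 and 25.0 at 6 h, then 17.8 and 18.2 at 72 h, a log2 change of -2.04 ± 0.18 at 72 h (adjusted p = 2.58e-08). Inside CCDC26, at 1942.4 kb, it had 21.6 and 16.9, 4.54 and 1.28, and 2.28 and 2.55 CPM (-2.99 ± 0.28 at 72 h, adjusted p = 5.14e-08).

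Rad21 was measured at 0 and 72 h. Of 123 tested regions 15 rose and 27 fell, where 23.3% of all Rad21 regions were called (15.4% higher and 7.91% lower) and, among those of at least 10 CPM, 25.6% (13.7% higher and 11.8% lower). The count of 42 dropped to 20 with DESeq2, to 26 without replicate 1 of 0 h (15 higher and 11 lower, so that the majority turned), to 16 without replicate 1 of 72 h and to 22 without replicate 2 of 72 h. The PVT1 span had 8 higher and 9 lower of 38, and the CCDC26 span 1 higher and 8 lower of 19. Summed over the CCDC26 span, Rad21 was 172 ± 11.6 CPM at 0 h and 101 ± 4.85 at 72 h, and over the PVT1 span 334 ± 53.2 and 244 ± 9.17.

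Among the Rad21 regions that changed were sites where H3K27ac and Jun were called too. At 224.8 kb in PVT1 (chr8:127959758-127960809) the libraries had 41.4 and 28.1 CPM at 0 h and 6.70 and 6.79 at 72 h, a log2 change of -2.37 ± 0.28 (adjusted p = 5.75e-06). At 116.7 kb (chr8:127851786-127852392) they had 2.52 and 2.74 CPM at 0 h and 16.7 and 7.35 at 72 h (2.21 ± 0.40, adjusted p = 0.000453), a call that was lost without replicate 1 of 72 h (1.53, adjusted p = 0.0575). At 1052.5 kb (chr8:128787702-128788204) they had 2.20 and 0.844 CPM at 0 h and 10.6 and 8.86 at 72 h (2.59 ± 0.43, adjusted p = 0.000178). At 1215.3 kb, chosen after its values were seen, the 0 h libraries held 0 counts and the 72 h level was at least 12.5-fold higher, against a floor of 3 counts over the group (adjusted p = 0.000675).

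At 455.8 kb (chr8:128190980-128191497), a site that CTCF shared, Rad21 had 9.75 and 6.75 CPM at 0 h and 2.08 and 1.32 at 72 h (-2.25 ± 0.43, adjusted p = 0.000682), without overlap. The Rad21 region before the MYC start, at -1.1 kb (chr8:127733937-127734646), which overlaps CASC11, a noncoding gene beside MYC, had 28.6 and 26.2 CPM at 0 h and 18.6 and 12.4 at 72 h. It fell by 0.81 (SE 0.26, adjusted p = 0.0245) on the log2 scale, a call lost with DESeq2 (adjusted p = 0.0821), without replicate 1 of 0 h and without either 72 h library. Over the start itself, at 0.0 kb, it was not called (-0.14 ± 0.29, adjusted p = 0.755), nor was the brightest region up to 0.5 Mb, at 163.6 kb in PVT1 (-0.16 ± 0.25, adjusted p = 0.668).

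CTCF moved least by the number of calls. Of 48 tested regions none was called at 6 h (2.65% of all CTCF regions were, 2.33% higher and 0.325% lower; 6 of the 48 had an unadjusted p under 0.05, and DESeq2 called 0), 3 were called at 72 h (6.79% of all; 4.07% higher and 2.72% lower) and none between 6 and 72 h (2.18% of all, 0.449% higher and 1.73% lower; 5 had an unadjusted p under 0.05, and DESeq2 called 0). Of those 3, the region at 2084.9 kb, between GSDMC and CYRIB (chr8:129820048-129820685), had 15.3 and 23.8 CPM at 0 h, 13.9 and 8.95 at 6 h, then 7.60 and 8.85 at 72 h (log2 change -1.22 ± 0.32, adjusted p = 0.0352). The other 2, chosen after their values were seen, were at 163.4 kb in PVT1, with 1.78 and 2.17 CPM at 0 h and 8.29 and 6.46 at 72 h (1.89 ± 0.54, adjusted p = 0.0442), and at 455.7 kb, with 5.61 and 3.97 CPM at 0 h and 0.922 and 0.983 at 72 h (-2.30 ± 0.62, adjusted p = 0.0375). Leaving out any single 0 or 72 h library or using DESeq2 ended all 3 calls, and leaving out either 6 h library raised the count to 12. With total-count scaling 12 regions were called, 11 of them higher. Summed levels shifted despite the few calls. In the PVT1 span the sum was 56.9 ± 4.76 CPM at 0 h and 92.3 ± 1.44 at 72 h. Its share of the window's CTCF counts went from 14.0% to 23.5% (means of 2 libraries). Before MYC the sum went from 33.9 ± 1.04 to 16.3 ± 0.579 CPM, and beyond 1.5 Mb from 222 ± 4.76 to 166 ± 14.8. The median log2 change of the PVT1 regions was 1.34 at 72 h, against 0.03 over all CTCF regions.

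The CTCF regions with the highest mean CPM before MYC, at MYC, up to 0.5 Mb and beyond 1.5 Mb were not called. The site at -9.5 kb in CASC11 (chr8:127725670-127726252) had 28.0 and 27.8 CPM at 0 h, 12.9 and 22.0 at 6 h, then 14.3 and 15.2 at 72 h. Every later library lay below both 0 h ones, and the log2 change at 72 h was -0.92 ± 0.28 (adjusted p = 0.0530). It passed the test when the fit held only the 0 and 72 h libraries (adjusted p = 0.00957), without either 6 h library, and with the replicate block (adjusted p = 0.0209). The site at -1.2 kb (chr8:127733885-127734584) had 28.8 and 31.8, 24.3 and 27.7, and 22.8 and 22.1 CPM (-0.43 ± 0.25 at 72 h, adjusted p = 0.255). The site at 1991.0 kb in GSDMC had 27 and 38.3, 18.8 and 41.1, and 19.8 and 24.6 CPM (-0.54 ± 0.32, adjusted p = 0.268). The brightest site in PVT1, at 159.4 kb, had 10.7 and 9.74, 16.5 and 19.5, and 10.6 and 13.2 CPM (0.22 ± 0.30, adjusted p = 0.642).

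**Figure D4:**
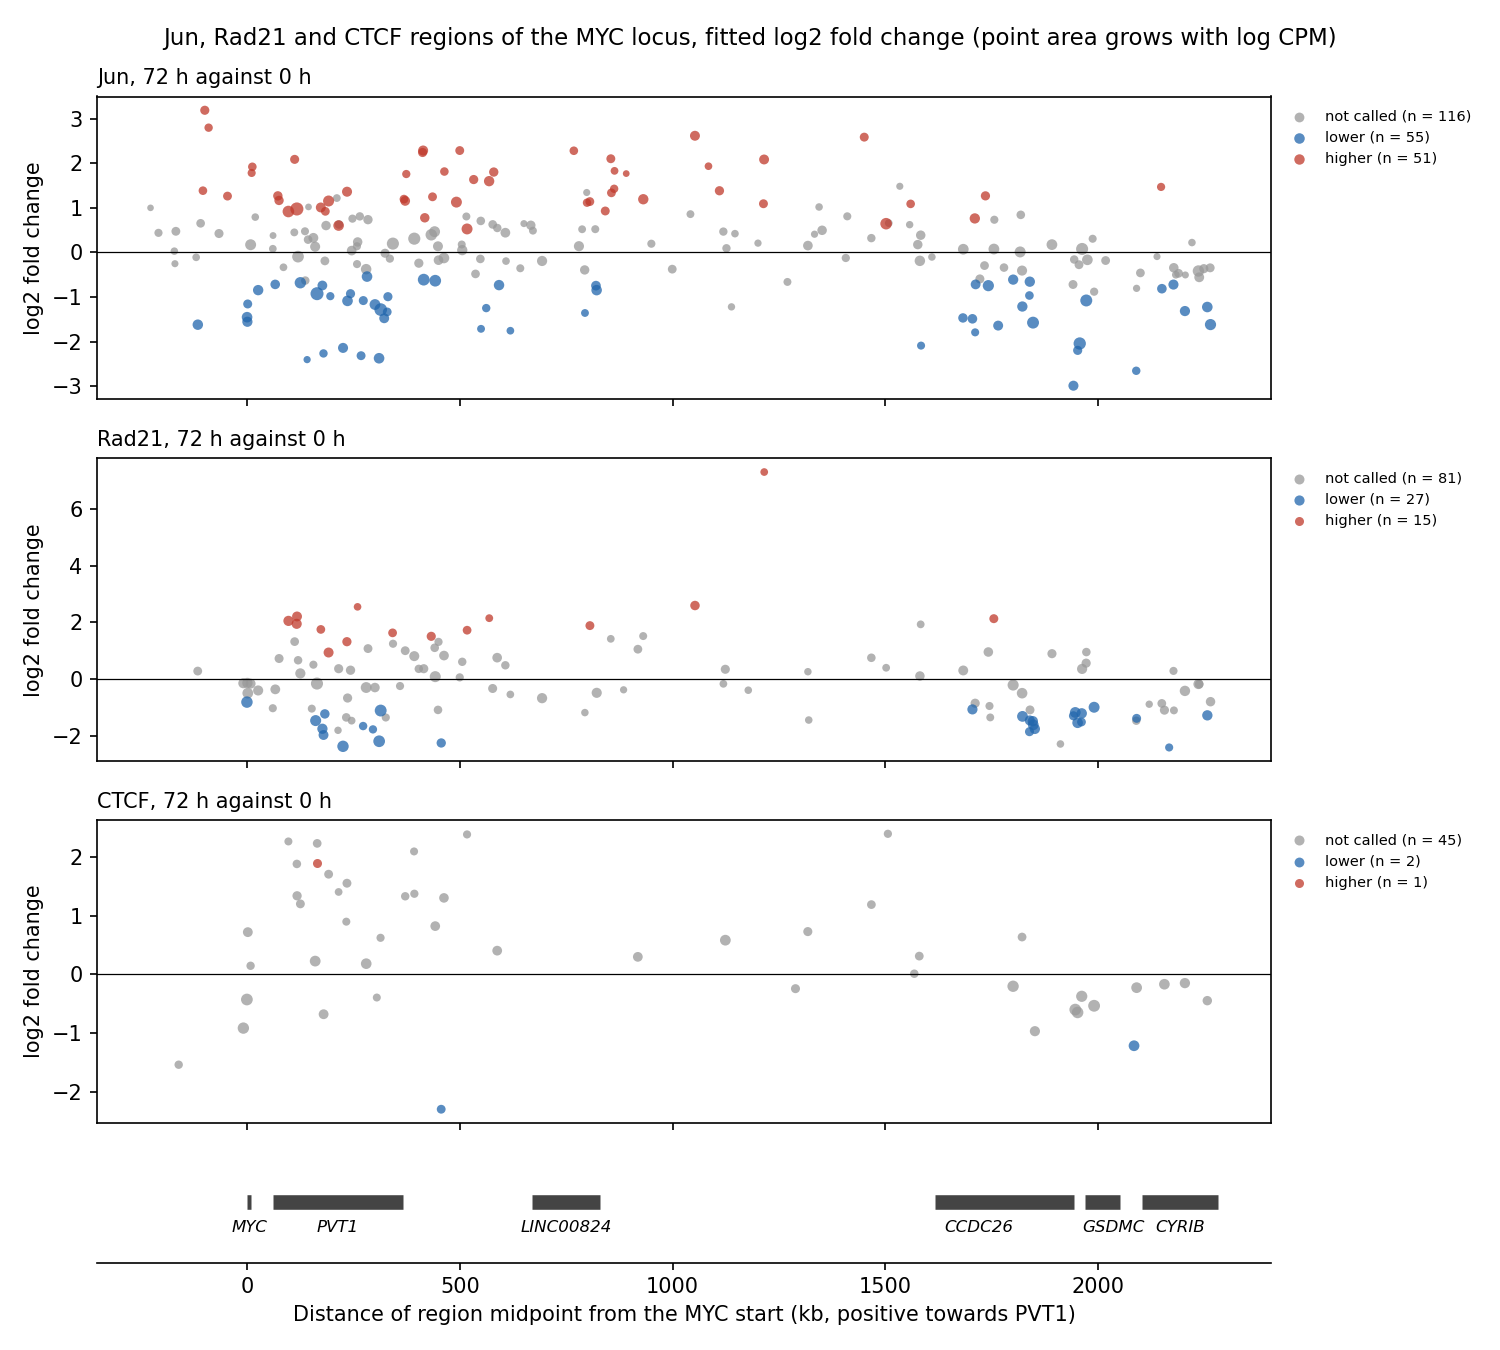
Change of each tested Jun, Rad21 and CTCF region in the window at 72 h against 0 h (log2 fold change, vertical axis) against its distance from the MYC start in kb (horizontal axis); points are regions, coloured by call. Jun had 51 higher and 55 lower, Rad21 15 and 27, and CTCF 1 and 2.

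Regions of different antibodies lay on the same sites. Of the 53 H3K27ac regions that rose at 72 h, 51 overlapped a Jun region, and 28 of the 53 overlapped one that rose and 7 one that fell. Over all H3K27ac regions, 75.3% in the window and 71.8% outside it overlapped a Jun region. Of the 100 that fell, 61 overlapped a Jun region, 41 overlapped one that fell and 2 one that rose. With stable-peak scaling, 73 H3K27ac regions were higher and 76 lower: 54 of the former overlapped a higher Jun region and none a lower one, and 8 of the latter overlapped a higher and 16 a lower one. At 23 sites, counted as H3K27ac regions, H3K27ac, Jun and Rad21 were all called at 72 h with the main scaling. At 7 all were higher and at 15 all lower. At 1, at 234.6 kb in PVT1, H3K27ac and Jun were lower and Rad21 higher. The fallen sites at 309.7 and 310.2 kb shared 1 Jun and 1 Rad21 region. Sites called for all 3 antibodies were not counted under the other scalings. Of such sites 95.7% in the window and 91.7% outside it (of 9428) had 1 direction. The 7 risen sites lay at 96.4, 116.2, 190.5, 568.7, 805.2, 1052.4 and 1215.0 kb, and the 15 fallen ones included those at -1.0, 224.5, 310.2 and 312.9 kb. These site lists were drawn up after the values were seen.

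The authors' peak lists, made per library, gave the share of regions that held a peak. For H3K27ac it was 34.9% ± 3.80 of the window's regions at 0 h, 32.5% ± 2.66 at 6 h and 51.1% ± 5.32 at 72 h, while the summed level fell; the 72 h H3K27ac libraries also held the most counts in regions. For Jun it was 28.1% ± 1.22, 22.5% ± 4.90 and 70.6% ± 4.90, where the total counts of the 72 h Jun libraries were also the highest. For CTCF it was 30.8% ± 5.89, 21.7% ± 7.07 and 45.8% ± 20.03, and for Rad21 39.3% ± 12.1 at 0 h and 23.3% ± 6.94 at 72 h (SD, n = 2 each). No test of these shares was run, since an exact permutation test of 2 libraries against 2 cannot reach 0.05.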

How the data were processed

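Each antibody has a deposited table of raw counts made by the authors, with a column per library and, per the file headers, the authors' log2 fold changes and adjusted p-values. The deposited peak lists, 1 per library, hold the authors' fold enrichment (a ratio) and −log10 p-value and q-value of each peak. The submitters' processing notes name Trim Galore 0.4.3, BWA 0.7.17, SAMtools 1.9, deepTools 3.0.1, MACS2 and bedtools 2.26 and both hg19 and hg38, without their roles. Coordinates were taken as GRCh38, since regions on chromosome 20 reach position 64331078, and starts were shifted by 1 to be 1-based. Gene spans are those of RefSeq GRCh38.p14. The tables had 0 sample columns that matched no sample.

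Samples were grouped by title. All regions and time points of an antibody entered one fit in edgeR 4.0.16 (R 4.3.3), with filterByExpr, TMM scaling, glmQLFit and glmQLFTest, without a replicate block; adjusted p-values are Benjamini-Hochberg over all tested regions and the test is two-sided. The SE is the log2 change divided by the square root of the F statistic. Alternatives were total-count scaling, stable-peak scaling (TMM factors over regions where all libraries had a peak), DESeq2 1.42.0, other count filters, a replicate block, only the time points compared and leaving out each library. Python 3.11.15, pandas 2.3.3 and matplotlib 3.10.9 made the tables and figures.

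On simulated counts with 200 regions changed 4-fold, the 72 against 0 h test recovered 187 for H3K27ac (94865 regions), 164 for CTCF (58156), 163 for Jun (132947) and 141 for Rad21 (83750), with false calls making up 11.8%, 5.75%, 6.32% and 4.08% of the calls.

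The members, gene lists and rules were chosen with earlier results of these data known. The regions named by rule were those at the MYC and PVT1 starts, the one with the highest mean CPM in each distance group, and, for each contrast against 0 h, the 2 largest rises and falls among called regions of at least median CPM whose time points did not overlap. A peak counted for a region from 1 bp of overlap. Some markers of the check of the cell line are not reported here.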

Additional observations from a re-analysis of the deposited data

How the results depend on the processing

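Libraries held 2553677 to 27266241 counts in regions, and the part of depth in these results was not tested. For H3K27ac every alternative left the number of called regions within 1.5 times the main count; with 1 library omitted it was 100 to 115 at 6 h against 0 h (118 with all), 137 to 153 at 72 h (153) and 104 to 128 at 72 h against 6 h (129). For Jun these ranges were 43 to 54 (62), 64 to 115 (106) and 9 to 58 (53); the 53 dropped to 15 without replicate 1 and 9 without replicate 2 of 72 h, to 29 without replicate 2 of 6 h, and to 25 with DESeq2. For Rad21 the range was 16 to 41 (42), and DESeq2 gave 20. For CTCF the ranges were 0 to 1 at 6 h (0), 0 to 12 at 72 h (3) and 0 to 2 at 72 h against 6 h (0). Total-count scaling gave 1, 12 and 4 CTCF calls in these comparisons; at 72 h DESeq2 and a mean count of at least 20 each gave 0 and only the time points compared 14; at 72 h against 6 h no filter gave 1. The labels give same-numbered libraries of different time points only a shared number. Correlations of their deviations from the group means ran from -0.003 to 0.13, which cannot exclude shared cultures. The replicate block gave 116, 153 and 126 calls for H3K27ac, 61, 104 and 48 for Jun, 0, 4 and 1 for CTCF and 43 for Rad21. The cause of these changes was not tested. The rise in the share of Jun regions with a peak, 42.4 percentage points from 0 to 72 h, was 47.6 where peaks had to cover 50% of a region and 29.7 with peaks of −log10 q of at least 10. For named regions, 581 values under alternative settings kept their side of the threshold, 9 passed it newly, 22 lost it and 5 reversed. With a library left out 482 kept their side, 5 passed it newly and 29 lost it. A turn of sign counted as a reversal only where the main or the alternative fit made a call. Turns without a call in either are among those that kept their side. One is H3K27ac at 0.6 kb at 72 h, -0.34 in the main fit and up to 0.26 under another setting. The reversals so counted were H3K27ac at 1.4 kb in MYC at 6 h (0.33 under total counts and 0.34 with stable-peak scaling) and, with those factors, at 72 h (0.22), and at 2237.3 kb at 6 h (0.016) and 72 h (0.082). The share of higher calls moved by over 10 percentage points with the scaling: for H3K27ac at 6 h from 49.2% to 68.1% with total counts and 69.0% with stable-peak scaling, and at 72 h from 34.6% to 49.0% with the latter; for Jun at 6 h from 51.6% to 69.0% and 65.6%, and at 72 h against 6 h from 41.5% to 85.7% and 95.8% (28.0% with DESeq2); for CTCF at 72 h from 33.3% to 91.7% and 100%; for Rad21 to 25.0% with DESeq2 from 35.7%.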

Other observations

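H3K27ac was also read at the genes of the MYC network, MYC included, whose proteins bind MAX, the obligate partner of MYC, or MLX, its relative. Each gene was read at its start or, where no strand was given, at the region with the highest mean CPM in its span, as for MAX, MXI1 and MGA. Of 11 network genes 10 had a tested region (MYCN had none). At 6 h 2 rose and 3 fell (26.3% of all regions were lower), but 5 were higher and 2 lower with total-count and with stable-peak scaling. At 72 h none rose and 9 fell, MYC among them, whose call was lost with total-count scaling (adjusted p = 0.257) and turned in direction with stable-peak scaling (0.22, adjusted p = 0.0862); MNT was not called (log2 change 0.25). At MAX the libraries had 55.8 and 55.6 CPM at 0 h and 17.4 and 18.3 at 72 h, without overlap, a log2 change of -1.64. MXD1, an antagonist of MYC, had 47.4 and 50.7 CPM at 0 h and 33.9 and 32.9 at 72 h (-0.56). The median of the network was -0.78 at 72 h, against 0.18 over all regions; in the series as a whole 38.1% of regions were lower at 72 h, and 61.1% of those of at least 10 CPM. With stable-peak scaling, whose factors come only from regions where all libraries had a peak, 1 network gene was higher and 4 were lower, with a median of -0.17. Of single network genes only MYC is given under that scaling, so the direction at MXD1 is known for the main scaling only.

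Of 10 known MYC target genes, which serve ribosome making, nucleotide synthesis and growth, all 10 fell at 72 h in H3K27ac, with a median of -1.08, beside the same 38.1% and 61.1%. CAD, an enzyme of pyrimidine synthesis, had 61.8 CPM in both libraries at 0 h and 19.8 and 19.2 at 72 h (-1.67), and ODC1, the first enzyme of polyamine synthesis, had 36.4 and 35.3 and then 27.6 and 29.0 (-0.34). With stable-peak scaling 1 was higher and 7 were lower, with a median of -0.48. The fall at ODC1 was the smallest of the 10, and a larger one, of -0.38 at 1.4 kb in MYC, turned to 0.22 with that scaling. Values of single target genes under it are not given here, so the direction at ODC1 is known for the main scaling only. Jun, read at its own region of each gene by the same rule, fell at 8 of the 10 targets and at 8 of 9 network genes with a region at 72 h, where 25.7% of all Jun regions and 53.5% of those of at least 10 CPM were lower. With stable-peak scaling 2 and 5 were lower. Both gene lists were chosen with earlier results known and carry no test.

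The H3K27ac regions whose level over the 6 libraries was most like that of the MYC region at 1.4 kb, by root mean square difference of centred log2 CPM, overlapped RAD21L1 (0.0519), USP40 (0.0549), FAM200A and ZNF655 (0.0587), RHOC (0.0612) and GON7 and UBR7 (0.0630). In each of them the 72 h libraries were the lowest, and the log2 change at 72 h lay between -0.48 and -0.35. Both traits follow from choosing the regions by likeness over these same libraries, and they test nothing.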
